A study of Mus musculus with 18 samples.

Results

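Aldehydes are removed in the brain by enzymes that either oxidise them to acids or reduce them to alcohols, and 9 such genes related to Aldh5a1 were followed here. Their mRNA was measured on Affymetrix arrays in mice without Aldh5a1, the gene of succinate semialdehyde dehydrogenase. A member was any probe set, a group of short oligonucleotides that together read 1 transcript, whose only annotated gene symbol was Aldh2, Aldh9a1, Aldh1a1, Aldh3a2, Aldh7a1, Adh5, Akr1a1, Akr1b3 or Akr7a5. The array carried 15 such probe sets, for 8 of the 9 genes, among 12488 probe sets in all. Akr1b3, the gene of aldose reductase, had 0 probe sets.

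The 18 arrays came from hippocampus, cerebellum and cortex of 3 Aldh5a1-/- mice (KO) and 3 wild-type mice (WT), 1 array for each animal and region. Strain, age and sex are not given in the sources used here, and no transgene, treatment or other allele is named for either genotype. The labels number the KO animals 3363, 3389 and 3403 and the WT animals 3405, 3406 and 3396, and values below are listed in that order. The KO label could not be checked on the targeted transcript, because Aldh5a1 had 0 probe sets.

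Succinate semialdehyde is formed when the inhibitory transmitter GABA is broken down, and Aldh5a1 oxidises it to succinate in mitochondria. Without that step the semialdehyde can instead be reduced to gamma-hydroxybutyrate, a reaction carried out by aldehyde reductases such as the products of Akr7a5 and Akr1a1. Other aldehyde dehydrogenases act on neighbouring substrates, among them lipid aldehydes, retinaldehyde, lysine semialdehyde and the aldehyde that leads from putrescine to GABA. The comparison of KO with WT asks whether the mRNA of these related enzymes differs when Aldh5a1 is lost.

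Values are probe set intensities scaled by the authors, called signal here. The median signal of an array was between 53.5 and 64.8, and replicate arrays of 1 group correlated at r = 0.955 to 0.976. Because 1 label field gives hippocampus as the source of all samples, regions follow the description and the end of each title, and 18 of 18 arrays lay closest to arrays of their own region. Summed signal of 8 cerebellar marker genes was 13676 to 14614 in cerebellum and 819 to 1146 in the other regions. The tissue is a mixture of cells, so fewer cells of a type and less RNA per cell cannot be told apart. Two-sided tests used limma over all 8382 probe sets that passed a filter on low signal, with Benjamini-Hochberg adjustment and a threshold of 0.05. Of the 15 member probe sets, 14 passed that filter and at least 1 did for each of the 8 genes. Another probe set of Aldh7a1, 161783_at, was left out, with signals of 1.24 to 7.42, all under the floor of 9.46. Levels of different probe sets are not compared, since each binds with its own efficiency. Counts, ranges, medians and ranks over genes use the brightest probe set of each gene.

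None of the 8 enzyme genes passed the test for a difference between KO and WT in hippocampus, cerebellum or cortex. In limma's test 0 of 8 genes and 0 of 14 probe sets were called in each region, and 0 had an unadjusted p under 0.05. Over all probe sets tested, 0.119% were called in hippocampus, 0.0358% in cerebellum and 0.286% in cortex, so a count of 0 among 14 does not set the members apart. By the brightest probe sets, the log2 differences, KO minus WT, of the 8 genes lay between -0.10 and 0.15 in hippocampus. They lay between -0.26 and 0.25 in cerebellum and between -0.03 and 0.22 in cortex. The lowest adjusted p of any member probe set was 0.743 in hippocampus, 0.558 in cerebellum and 0.541 in cortex. These p-values do not show that the genotypes are alike. Taken over the brightest probe sets of the 8 genes, the 95% intervals reached from a KO over WT ratio of 0.722 to 1.39 in hippocampus. They reached from 0.634 to 1.5 in cerebellum and from 0.778 to 1.43 in cortex. Of the other probe sets, the dim 161956_at of Aldh1a1 had the widest intervals. These were 0.840 to 2.28 in hippocampus, 0.680 to 1.85 in cerebellum and 0.409 to 1.11 in cortex.

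**Figure D1:**
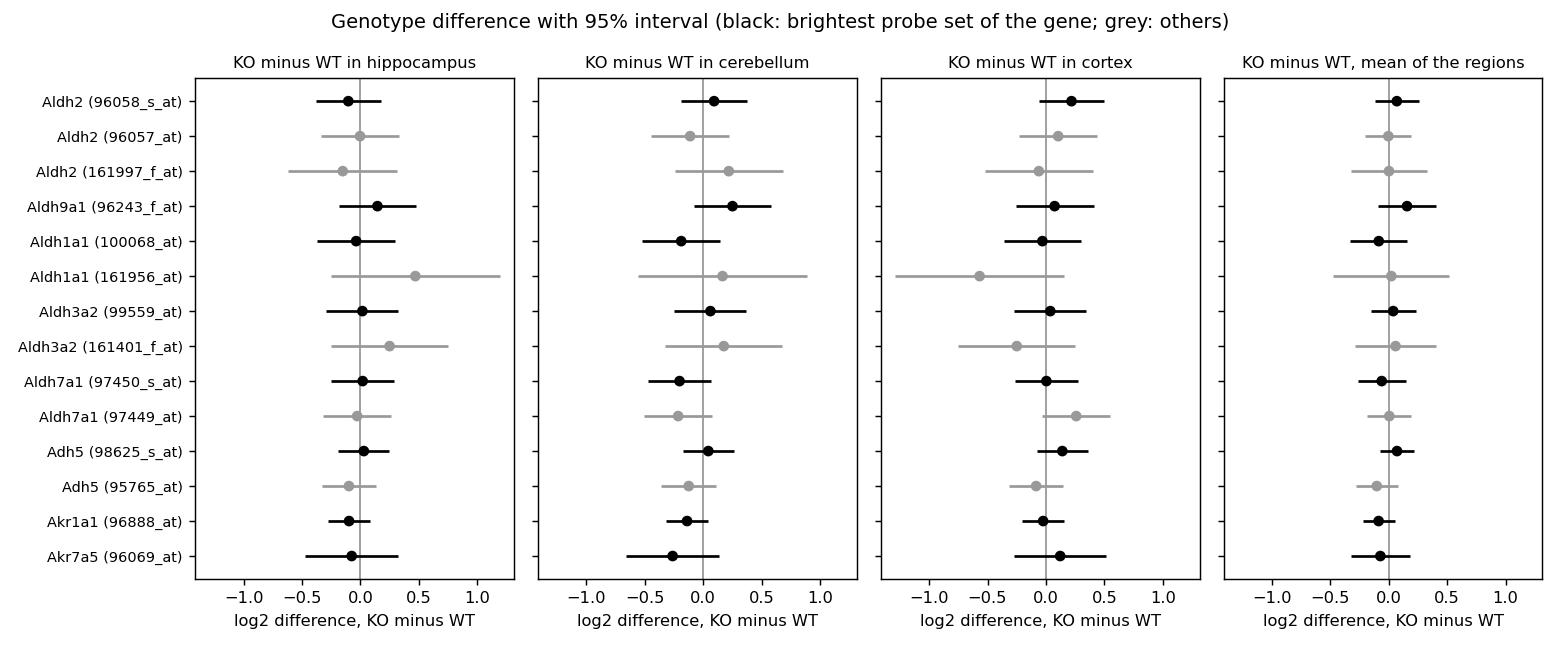
Log2 difference, KO minus WT, of the 14 member probe sets in each region and in the mean of the 3 regions, with 95% intervals from limma (3 KO and 3 WT animals). Every interval includes 0; the widest belong to the dim Aldh1a1 probe set 161956_at.

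Averaging the 3 regions of each animal gave the same count. With 1 mean log2 value per animal, 0 of 8 genes were called, 0 of 14 probe sets had an unadjusted p under 0.05, and 0.179% of all probe sets were called. By the brightest probe sets, the 8 differences lay between -0.09 and 0.16, and their 95% intervals reached from a ratio of 0.797 to 1.33. The test of whether the genotype difference varies between regions called 0 of 14 member probe sets, with 0.0477% called over all probe sets. Its lowest adjusted p among members was 0.534, for the Aldh1a1 probe set 161956_at. The median difference of the 8 genes was -0.01 in hippocampus, -0.05 in cerebellum and 0.06 in cortex, beside medians of 0.02, 0.03 and 0.0024 over all probe sets.

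The reductases that can turn succinate semialdehyde into gamma-hydroxybutyrate come first. Akr7a5, the aflatoxin aldehyde reductase known in mouse as a succinate semialdehyde reductase, had signals of 196, 289 and 270.4 in KO hippocampus and 222, 255 and 318 in WT hippocampus. In cerebellum it gave 270.0, 304 and 217 in KO and 257, 335 and 356 in WT. In cortex it gave 185, 221 and 187 in KO and 207, 143 and 199 in WT. The genotypes overlapped in each region. The log2 difference in cerebellum was -0.26 (95% interval -0.66 to 0.13), the lowest of the 8 genes there, with an adjusted p of 0.620 in limma's test. It was -0.07 (95% interval -0.47 to 0.32) in hippocampus and 0.12 (95% interval -0.27 to 0.52) in cortex.

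Akr1a1 encodes the general aldehyde reductase, which also makes a precursor of ascorbate in mice. Its signals were 1476, 1569.9 and 1674 in KO hippocampus and 1596, 1708 and 1742 in WT hippocampus. Cerebellar signals were 1418, 1246 and 1324 in KO and 1454, 1379 and 1555 in WT. Cortical signals were 1629, 1368 and 1541 in KO and 1505, 1554 and 1543 in WT. The genotypes overlapped in each region, with group means lower in KO in all 3. The log2 differences were -0.10 (95% interval -0.28 to 0.08) in hippocampus, -0.14 (95% interval -0.32 to 0.04) in cerebellum and -0.02 (95% interval -0.20 to 0.16) in cortex. Averaged over regions, the 3 KO animals lay below the 3 WT animals, with a log2 difference of -0.09 (95% interval -0.22 to 0.05) and an adjusted p of 0.660 in limma's test. Akr1a1 was the only 1 of the 8 genes whose animal means did not overlap, and 15.6% of all probe sets did not overlap in that comparison.

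Adh5 encodes the glutathione-dependent formaldehyde dehydrogenase, which also reduces S-nitrosoglutathione. Its brightest probe set, 98625_s_at, gave 533, 544 and 506 in KO hippocampus and 487, 478 and 594 in WT hippocampus. The cerebellar values were 699.7, 621 and 601 in KO and 624, 639 and 598 in WT. The cortical values were 435, 464 and 507 in KO and 385, 444 and 447 in WT. The genotypes overlapped in each region, and the log2 differences were 0.03, 0.04 and 0.14 in hippocampus, cerebellum and cortex. The other probe set, 95765_at, gave differences of the opposite sign, -0.10, -0.12 and -0.08. No direction can therefore be given for Adh5.

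Among the aldehyde dehydrogenases, Aldh9a1 stands nearest to GABA, because its product oxidises gamma-aminobutyraldehyde to GABA. Its signals were 96.7, 89.8 and 103 in KO hippocampus and 88.0, 95.5 and 78.7 in WT hippocampus. In cerebellum the values were 126, 102 and 130.1 in KO and 111, 111 and 80.9 in WT. In cortex they were 69.1, 66.3 and 71.1 in KO and 58.0, 67.2 and 71.6 in WT. The genotypes overlapped in each region. The log2 difference was 0.15 (95% interval -0.19 to 0.48) in hippocampus, 0.25 (95% interval -0.08 to 0.58) in cerebellum and 0.07 (95% interval -0.26 to 0.41) in cortex, the highest of the 8 genes in hippocampus and cerebellum. The adjusted p in cerebellum was 0.563 in limma's test. The 1 probe set of Aldh9a1 carries the suffix _f_at, which Affymetrix gives where a probe set can bind several transcripts of a family.

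Aldh2, the mitochondrial enzyme that clears acetaldehyde and lipid aldehydes, was read by 3 probe sets. The brightest, 96058_s_at, gave 144, 162 and 166 in KO cortex and 131, 133 and 142 in WT cortex. Each KO cortex was above each WT cortex. The log2 difference in cortex was 0.22 (95% interval -0.06 to 0.50), with an adjusted p of 0.607 in limma's test. Non-overlapping groups were common, at 14.2% of all probe sets in cortex, and Aldh2 was the only 1 of 8 genes that showed it there. The other probe sets of Aldh2 overlapped in cortex, with differences of 0.10 for 96057_at and -0.06 for 161997_f_at. In hippocampus 96058_s_at gave 184, 192 and 216 in KO and 212, 210.1 and 213 in WT, and in cerebellum 227, 166 and 166 in KO and 149.9, 187 and 184 in WT. Both of those comparisons overlapped. There 96057_at gave -0.11 in cerebellum and -0.0033 in hippocampus, and 161997_f_at gave 0.22 and -0.15.

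Aldh1a1 makes retinoic acid from retinaldehyde. Its brightest probe set, 100068_at, gave 1036, 954 and 1056 in KO cerebellum and 1089, 1126 and 1259 in WT cerebellum. Each KO cerebellum was below each WT cerebellum. The log2 difference was -0.19 (95% interval -0.52 to 0.14) and the adjusted p in limma's test was 0.673. It was the only 1 of 8 genes that did not overlap in cerebellum, where 15.2% of all probe sets did not. The genotypes overlapped in hippocampus, with 489.8, 571 and 708 in KO and 567, 566 and 666 in WT, and in cortex, with 379, 539 and 641 in KO and 479, 506 and 577 in WT. In hippocampus 0 of 8 genes had groups that did not overlap, against 17.3% of all probe sets. The dim second probe set, 161956_at, had cortex signals of 20.7, 24.6 and 22.6 in KO and 35.5, 24.8 and 42.7 in WT. These did not overlap, with a log2 difference of -0.57 (95% interval -1.29 to 0.15), while 100068_at gave -0.03 there. In hippocampus 161956_at gave 0.47 and in cerebellum 0.17, both with overlap. Aldh1a1 has a near-identical mouse copy, Aldh1a7, and how far these probe sets also read it was not tested.

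Aldh3a2 encodes fatty aldehyde dehydrogenase, the enzyme lost in Sjögren-Larsson syndrome. Probe set 99559_at gave 132, 119.9 and 128 in KO hippocampus and 119.6, 131 and 126 in WT hippocampus. Cerebellum gave 163, 173 and 174 in KO and 203, 139 and 153 in WT. Cortex gave 111, 136 and 131 in KO and 109, 145 and 116 in WT. The differences of 99559_at, 0.02, 0.06 and 0.04 in hippocampus, cerebellum and cortex, were all within 0.1 of 0, while the second Aldh3a2 probe set, 161401_f_at, gave 0.25, 0.18 and -0.25, with overlap in each. Aldh7a1, or antiquitin, oxidises a semialdehyde of lysine breakdown and is the gene of pyridoxine-dependent epilepsy. Its probe set 97450_s_at gave 235, 282 and 262 in KO hippocampus and 245, 247 and 275 in WT hippocampus. In cerebellum it gave 239, 331 and 272 in KO and 311, 361 and 291 in WT. In cortex it gave 256, 307 and 309 in KO and 293, 274 and 299 in WT. The genotypes overlapped for both genes in each region. The lowest adjusted p in cortex, 0.541 in limma's test, belonged to the second Aldh7a1 probe set, 97449_at, at 0.26 (95% interval -0.03 to 0.55). That probe set gave -0.03 in hippocampus and -0.21 in cerebellum.

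**Figure D2:**
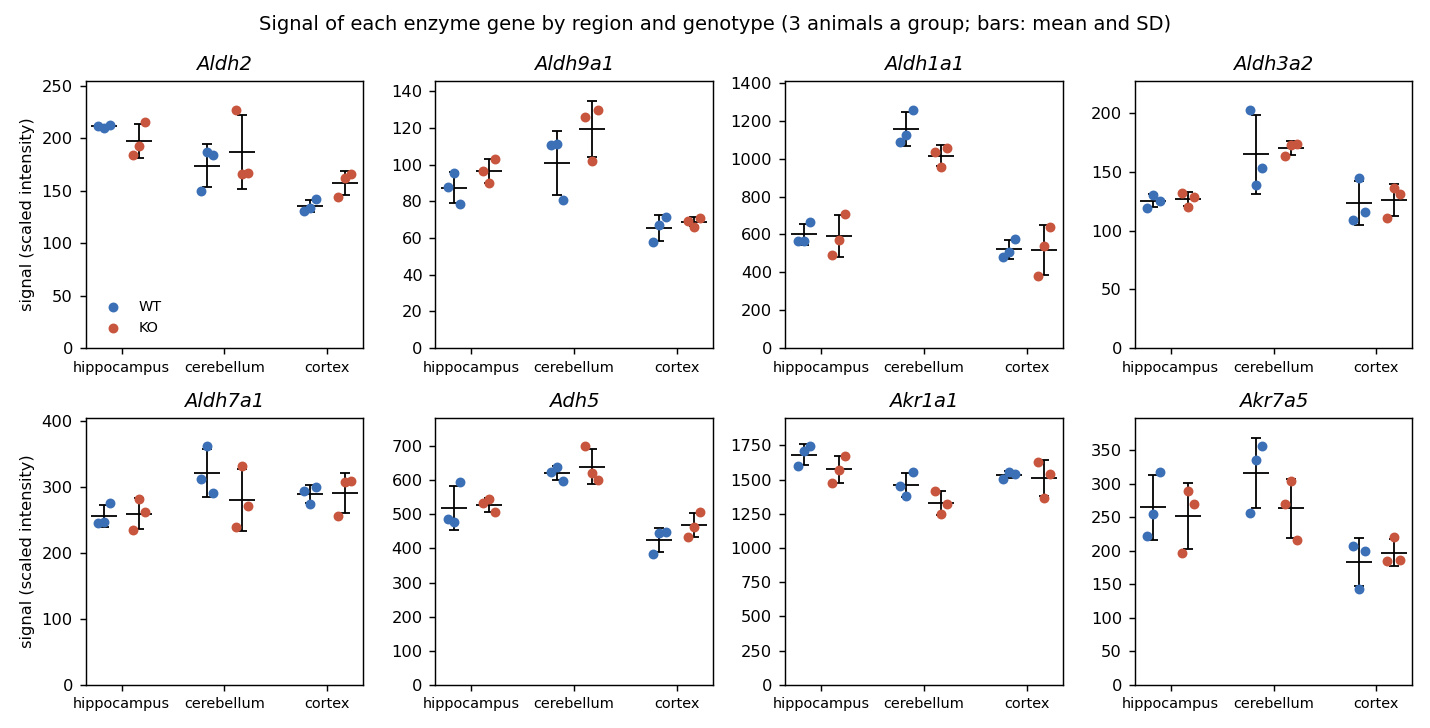
Signal (scaled intensity, linear axis from 0) of the brightest probe set of each of the 8 genes in the 3 regions, WT in blue and KO in red, 1 point per animal, with mean and SD (n = 3). Aldh1a1 lies at 954 or above in each cerebellum and at 708 or below in each other array, while KO and WT overlap in most panels.

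Summed levels of cell type markers separated the genotypes in some regions of the same arrays. Summed signal of 7 oligodendrocyte genes was 3919 to 5028 in KO and 5815 to 8791 in WT hippocampus, and 3324 to 4199 in KO and 6299 to 8086 in WT cortex. In cerebellum the sums were 7190 to 7906 in KO and 7750.4 to 8900.2 in WT. In limma's test 2 of 6 kept oligodendrocyte genes fell in hippocampus, 0 of 6 in cerebellum and 5 of 6 in cortex. Summed signal of 6 neuronal genes was also lower without overlap in KO cerebellum (7011 to 7875, against 8010.1 to 9174 in WT) and KO cortex (10555 to 10931, against 11104 to 12326). Summed signal of 7 astrocyte genes was lower without overlap in KO cortex (4913 to 5508, against 5648 to 5658), and that of 8 microglial genes was higher in KO hippocampus (1661 to 2135, against 1561 to 1611). In limma's test 0 of 7 astrocyte, 0 of 6 neuronal and 0 of 7 kept microglial genes passed in those regions. Of single probe sets, 17.3% did not overlap between genotypes in hippocampus, 15.2% in cerebellum and 14.2% in cortex. No such share was taken for sums. The sums weight bright genes, and in cortex 3 of 7 astrocyte and 2 of 6 neuronal genes lay above 0, KO minus WT. The other sums of neuronal, astrocyte and microglial genes overlapped, as did those of vascular, choroid plexus and meningeal genes in each region. The ratio of Gapdh 3′ to 5′ probe sets, a sign of RNA quality, was 0.804 ± 0.00773 in KO and 0.903 ± 0.0202 in WT cortex (SD, n = 3). The same ratio for actin was alike in the genotypes there, at 1.77 ± 0.124 in KO and 1.77 ± 0.140 in WT cortex. It was lower in hippocampus (1.33 in KO and 1.30 in WT) and cerebellum (1.36 in KO and 1.28 in WT). The part of these differences in the enzyme values, between genotypes or between regions, was not tested.

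The wider aldehyde pathway was read through 5 gene lists, and 0 genes of any list passed limma's test, whether by region or over each animal's regional mean. Of other aldehyde dehydrogenases, 5 of 13 listed genes were on the array and 1 passed the filter, Aldh3a1, at 0.05 (adjusted p = 0.980) in hippocampus, -0.21 (adjusted p = 0.833) in cerebellum and -0.40 (adjusted p = 0.725) in cortex. Of other alcohol dehydrogenases, aldo-keto reductases and carbonyl reductases, 5 of 12 on the array passed the filter. Their median differences were 0.31 in hippocampus, 0.21 in cerebellum and -0.18 in cortex. The 2 of lowest p were Adh7, at 0.57 (adjusted p = 0.507), and Cbr1, at -0.25 (adjusted p = 0.675), in hippocampus. They were Cbr3, at 0.33 (adjusted p = 0.644), and Akr1b8, at 0.32 (adjusted p = 0.688), in cerebellum, and Cbr3, at -0.40 (adjusted p = 0.619), and Adh7, at -0.23 (adjusted p = 0.779), in cortex. Adh7 encodes a retinol-oxidising alcohol dehydrogenase, and Cbr1 and Cbr3 encode carbonyl reductases.

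All 12 measured genes of GABA and succinate semialdehyde metabolism passed the filter, and 0 of 12 passed the test in each region. Their median was -0.17 in hippocampus, with 9 of 12 below 0, -0.08 in cerebellum, with 10 of 12 below 0, and -0.05 in cortex, with 7 of 12 below 0. The genes of lowest p in hippocampus were Suclg1, a subunit of succinyl-CoA ligase, at -0.24 (adjusted p = 0.565), and Sdhd, a subunit of succinate dehydrogenase, at -0.24 (adjusted p = 0.633). In cerebellum they were Ogdh, the first subunit of oxoglutarate dehydrogenase, at -0.28 (adjusted p = 0.270), and Suclg1, at -0.24 (adjusted p = 0.361). In cortex they were Slc32a1, the vesicular GABA transporter, at -0.39 (adjusted p = 0.520), and Sdhc, at 0.25 (adjusted p = 0.541). None of these adjusted p-values from limma lay under the threshold.

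The list of amine and polyamine metabolism gave 4 kept genes of 5 on the array, of which Maoa forms an aldehyde directly, and 0 of 4 passed the test in each region. Sat1, which acetylates spermine and spermidine, had KO signals of 317 to 347 and WT signals of 152 to 208 in cortex, without overlap, at 0.85 (adjusted p = 0.209). Srm, spermidine synthase, had KO signals of 109.9 to 139 and WT signals of 172 to 207 in cerebellum, also without overlap, at -0.60 (adjusted p = 0.141). The others of lowest p were Maoa, monoamine oxidase A, at 0.33 (adjusted p = 0.543), and Sat1, at 0.54 (adjusted p = 0.574), in hippocampus. Odc1, ornithine decarboxylase, was the other in cerebellum, at -0.21 (adjusted p = 0.630), and in cortex, at -0.21 (adjusted p = 0.697). The medians of the 4 genes were 0.17, -0.12 and 0.07 in hippocampus, cerebellum and cortex.

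All 12 measured genes of aldehyde and glutathione defence passed the filter, with 0 of 12 past the test and medians of 0.09, 0.11 and 0.11 in hippocampus, cerebellum and cortex. Hmox1, haem oxygenase, had the lowest p of the list in each region. Its KO signals were 329 to 411 and its WT signals 229 to 255 in hippocampus, and 292 to 421 against 217 to 259 in cortex, without overlap in either. The log2 difference was 0.61 (adjusted p = 0.196) in hippocampus, 0.29 (adjusted p = 0.486) in cerebellum and 0.60 (adjusted p = 0.156) in cortex. Next were the glutathione transferase Gstm1 in hippocampus, at 0.35 (adjusted p = 0.452), the quinone reductase Nqo1 in cerebellum, at 0.45 (adjusted p = 0.531), and the glutathione reductase Gsr in cortex, at 0.27 (adjusted p = 0.346). In the mean of the regions the 2 of lowest p over this list were Hmox1, at 0.50 (adjusted p = 0.183), and Gsr, at 0.19 (adjusted p = 0.421). In that mean the amine and polyamine list gave Sat1, at 0.53 (adjusted p = 0.348), and Srm, at -0.26 (adjusted p = 0.421), the GABA list Suclg1, at -0.20 (adjusted p = 0.421), and Slc32a1, at -0.27 (adjusted p = 0.520), and the reductase list Akr1b8, at 0.24 (adjusted p = 0.599), and Adh7, at 0.18 (adjusted p = 0.679). The 7 microglial genes that passed the filter had medians of 0.20 in hippocampus and 0.26 in cortex, with 7 of 7 above 0 in both and 0 past the test, and their part in the Hmox1 values was not tested. Of the genes named by region in these lists, Adh7, Suclg1, Maoa and Gstm1 in hippocampus also had no overlap. The same held for Ogdh, Suclg1, Odc1 and Nqo1 in cerebellum and for Sdhc and Gsr in cortex. Over all probe sets, 17.3% did not overlap in hippocampus, 15.2% in cerebellum and 14.2% in cortex.

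**Figure D3:**
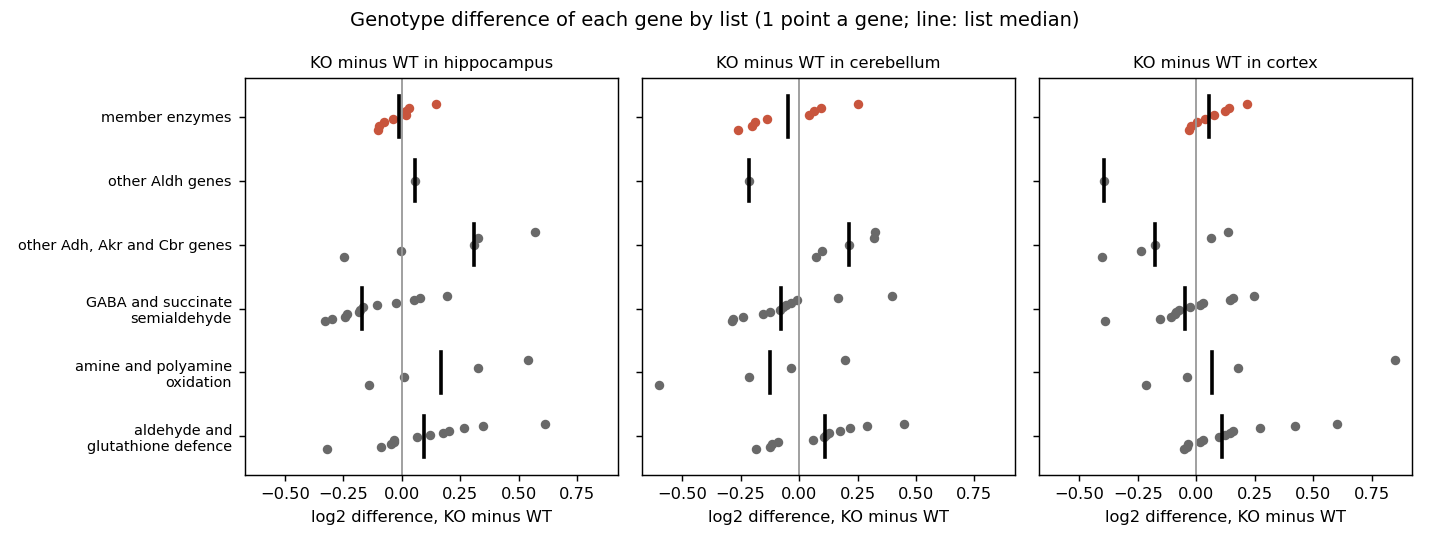
Log2 difference, KO minus WT, of each gene in the 3 regions, 1 point per gene by its brightest probe set, for the 8 enzyme genes (red) and 5 lists of related genes (grey), with the list median as a line. No point passed limma's test; the 8 enzyme genes lie within -0.26 to 0.25, and Sat1 in cortex is the farthest right at 0.85.

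Regions, unlike genotypes, gave calls among the members. In WT brain 4 of 8 genes differed between the 3 regions (limma F test, each animal as a block), namely Aldh1a1, Aldh2, Akr7a5 and Adh5. In KO brain 4 of 8 differed, namely Aldh1a1, Aldh9a1, Adh5 and Aldh3a2. Over all probe sets 39.4% were called in WT and 49.8% in KO. By probe set, the unit of these shares, 4 of 14 members were called in WT and 5 of 14 in KO. Neither count sets the members apart. The mean signal was highest in cerebellum for 6 of 8 genes in WT and 5 of 8 in KO, and lowest in cortex for 6 of 8 in both. The test of whether the genotypes differ in their regional pattern, given above, called 0 of 14 member probe sets. A call in 1 genotype alone therefore does not show a difference between them, nor does the test show that their patterns are alike. The counts out of 8 genes rest on the brightest probe set of each gene. With the mean log2 value of all kept probe sets of a gene, Akr7a5 and Adh5 passed the F test in WT, and Aldh1a1, Aldh9a1 and Adh5 in KO. Alternatives tallied below are those for the brightest probe set, or for the probe set named, and calls lost with the gene mean are given beside them.

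By its brightest probe set, Aldh1a1 had the largest regional difference of the 8 genes in both genotypes. Mean signal was 1158 ± 89.1 in WT cerebellum, 599.7 ± 57.7 in WT hippocampus and 521 ± 50.7 in WT cortex (SD, n = 3). In KO it was 1015 ± 54.2, 589.6 ± 110.5 and 519.9 ± 132 in the same order. Each cerebellum was above each hippocampus and cortex of its genotype. In WT the cerebellum was 1.93-fold above hippocampus (log2 difference 0.95 ± 0.10 (SE), adjusted p = 3.95e-05 in limma's test) and 2.23-fold above cortex (adjusted p = 8.52e-06). In KO the folds were 1.74 over hippocampus (adjusted p = 0.000952) and 2.0 over cortex (adjusted p = 0.000249). Hippocampus minus cortex did not pass limma's test, at 0.20 in WT (adjusted p = 0.213) and 0.20 in KO (adjusted p = 0.336). The 2 regions overlapped in both genotypes, though each animal's hippocampus was above its own cortex. That WT difference passed in 1 of 12 alternatives (adjusted p from 0.0453 to 0.459) and the KO difference in 0 of 11. The probe set 161956_at, with signals of 15.5 to 45.4, did not show the cerebellar excess and correlated with 100068_at at r = 0.0528 over the 18 arrays. With the mean of both Aldh1a1 probe sets the WT calls were lost, at 0.51 for cerebellum minus hippocampus (adjusted p = 0.0514), 0.42 for cerebellum minus cortex (0.0763) and 0.0676 in the F test. In KO that mean gave 0.29 for cerebellum minus hippocampus (adjusted p = 0.101), also lost, while cerebellum minus cortex passed at 0.71 (0.00180), as did the F test (0.00396). Summed signal of 7 astrocyte genes was also highest in WT cerebellum, at 8250.4 to 8582 against 5549 to 6115 in hippocampus and 5648 to 5658 in cortex. So was that of 6 vascular genes, at 691 to 737 against 615 to 678 in hippocampus and 472 to 649 in cortex. The part of either cell type in the result was not tested.

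Akr7a5 ranked cerebellum, hippocampus, cortex in both genotypes. In WT the means were 316 ± 52.3, 265 ± 48.7 and 183 ± 35.2, and in KO 264 ± 44.2, 252 ± 49.1 and 197 ± 20.2 (SD, n = 3). WT cerebellum was 1.73-fold above WT cortex without overlap (adjusted p = 0.00463 in limma's test). The neighbours in that order, cerebellum and hippocampus (adjusted p = 0.296) and hippocampus and cortex (adjusted p = 0.0740), did not pass. KO cerebellum was 1.33-fold above KO cortex, with overlap (adjusted p = 0.0414), though the F test in KO did not pass (0.0647). The WT F test gave 0.0105, and it no longer passed without animal 3406 (0.142) or animal 3396 (0.0813); it held in 9 of 12 alternatives (adjusted p from 0.00119 to 0.142). The cerebellum to cortex call was lost without animal 3406 in WT (0.0730) and without animal 3363 (0.117) or 3389 (0.189) in KO. It held in 11 of 12 alternatives (adjusted p from 0.000556 to 0.0730) in WT, and held in 5 of 11 alternatives (adjusted p from 0.0186 to 0.189) in KO.

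Adh5 followed the same order, with WT means of 620.3 ± 20.8 in cerebellum, 519.7 ± 64.7 in hippocampus and 425 ± 35.0 in cortex (SD, n = 3). The KO means were 640.5 ± 52.2, 528 ± 19.6 and 469 ± 36.4. Each cerebellum was above each cortex of its genotype, by 1.46-fold in WT (adjusted p = 0.00478 in limma's test) and 1.37-fold in KO (adjusted p = 0.00578). KO cerebellum also exceeded KO hippocampus by 1.21-fold (adjusted p = 0.0493), a call that was lost without any 1 of animals 3363 (0.169), 3389 (0.128) and 3403 (0.0950). In WT that step gave 0.26 (adjusted p = 0.129). The F tests, at 0.0119 in WT and 0.0119 in KO, did not pass without animal 3405 (0.0834) or 3406 (0.0805) in WT, or without animal 3363 (0.0967) or 3389 (0.0779) in KO. The KO step from cerebellum to cortex was lost without animal 3363 (0.0559). Over the alternatives, the KO call against hippocampus held in 5 of 11 alternatives (adjusted p from 0.0114 to 0.169). The WT F test held in 10 of 12 alternatives (adjusted p from 9.94e-05 to 0.0834), the KO F test held in 9 of 11 alternatives (adjusted p from 0.00464 to 0.0967), and the KO step to cortex held in 10 of 11 alternatives (adjusted p from 0.00261 to 0.0559). With the mean of both Adh5 probe sets the KO call against hippocampus was lost (0.110), and both F tests and both steps to cortex passed. The second probe set, 95765_at, had the same order in both genotypes and did not pass (adjusted p = 0.0766 for WT cerebellum minus cortex).

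Aldh9a1 was also highest in cerebellum and lowest in cortex. The WT means were 101 ± 17.4, 87.4 ± 8.41 and 65.6 ± 6.93 in cerebellum, hippocampus and cortex, and the KO means were 119.5 ± 15.0, 96.5 ± 6.68 and 68.8 ± 2.42 (SD, n = 3). In KO each cerebellum was above each cortex, by 1.73-fold (adjusted p = 0.00154 in limma's test), and each hippocampus was above each cortex, by 1.40-fold (adjusted p = 0.0425). The hippocampal call was lost without animal 3363 (0.156), 3389 (0.148) or 3403 (0.199), and with no animal block (0.0560). In WT the cerebellum was 1.53-fold above cortex (adjusted p = 0.0255), which did not hold without animal 3405 (0.174) or 3406 (0.171), and the WT F test gave 0.0533. The KO step from hippocampus to cortex held in 6 of 11 alternatives (adjusted p from 0.0339 to 0.199), and the WT step from cerebellum to cortex held in 9 of 12 alternatives (adjusted p from 4.16e-05 to 0.174).

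Aldh2 was highest in hippocampus. Probe set 96058_s_at had WT means of 212 ± 1.36 in hippocampus, 174 ± 20.8 in cerebellum and 135 ± 5.86 in cortex, and KO means of 197 ± 16.4, 187 ± 35.2 and 157 ± 11.6 (SD, n = 3). WT hippocampus was 1.57-fold above WT cortex without overlap (adjusted p = 0.0140 in limma's test). That call was lost without animal 3405 (0.0540), 3406 (0.139) or 3396 (0.0801), and the WT F test, 0.00932, without animal 3406 (0.0948) or 3396 (0.0521). The step held in 9 of 12 alternatives (adjusted p from 0.00247 to 0.139), and the F test held in 10 of 12 alternatives (adjusted p from 0.00223 to 0.0948). Both were lost with the mean of the 3 Aldh2 probe sets, which gave 0.37 for the step (adjusted p = 0.144) and 0.0960 in the F test. In KO the same step was 0.33, also without overlap (adjusted p = 0.179). The probe set 96057_at placed hippocampus highest too in both genotypes, and correlated with 96058_s_at at r = 0.743 over the 18 arrays, while the dim 161997_f_at correlated at r = 0.0742.

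By the brightest probe sets, the highest regional mean of Aldh3a2, Akr1a1 and Aldh7a1 was at most 1.35 times the lowest in either genotype. Aldh3a2 passed in KO, where cerebellum (170.0 ± 5.83) was 1.34-fold above hippocampus (127 ± 6.20, adjusted p = 0.0226 in limma's test) and 1.35-fold above cortex (126 ± 13.4, adjusted p = 0.0203). The Aldh3a2 F test, 0.0240, was lost without animal 3363 (0.0771), 3389 (0.103) or 3403 (0.119), as was the step to cortex (0.0660 to 0.103), and the step to hippocampus was lost without 3389 (0.128) or 3403 (0.110). For Aldh3a2 the F test held in 8 of 11 alternatives (adjusted p from 0.00701 to 0.119), the step to cortex held in 8 of 11 alternatives (adjusted p from 0.00800 to 0.103), and the step to hippocampus held in 9 of 11 alternatives (adjusted p from 0.00563 to 0.128). With the mean of both Aldh3a2 probe sets all 3 were lost, at 0.105 in the F test, 0.40 (adjusted p = 0.0588) for the step to cortex and 0.12 (0.558) for the step to hippocampus. Its second probe set, 161401_f_at, correlated with 99559_at at r = -0.0547 and did not pass.

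Akr1a1 was highest in hippocampus and lowest in cerebellum in both genotypes, and in KO cerebellum lay below hippocampus by -0.24 on the log2 scale (adjusted p = 0.0444). That Akr1a1 call was lost without animal 3389 (0.247) or 3403 (0.227), and held in 5 of 11 alternatives (adjusted p from 0.0193 to 0.347); its WT difference was -0.20 (adjusted p = 0.147). Aldh7a1 by 97450_s_at did not differ between regions past the test (F test 0.145 in WT and 0.375 in KO). Its second probe set, 97449_at, was lower in KO cerebellum (150.2, 149 and 152) than in KO cortex (192, 224 and 219), with an adjusted p of 0.00727, but 97450_s_at gave -0.06 there. That 97449_at call was lost without animal 3389 (0.0658) or 3403 (0.0511), and held in 9 of 11 alternatives (adjusted p from 0.00552 to 0.0658). The mean of both kept Aldh7a1 probe sets did not pass there (adjusted p = 0.0535).

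Counted by pair of regions, cerebellum and cortex gave the most calls. In WT 4 of 8 genes were called there, all higher in cerebellum, against 37.1% of all probe sets, and in KO 5 of 8 against 40.9%. For cerebellum minus hippocampus the counts were 1 of 8 in WT against 25.8%, and 4 of 8 in KO against 41.6%, of which Akr1a1 was the 1 lower in cerebellum. For hippocampus minus cortex they were 1 of 8 in WT against 10.1%, and 1 of 8 in KO against 15.0%. The gene counts take the brightest probe set of each gene, while the shares cover all probe sets, so the units differ. Scaling the arrays to the same median in place of the trimmed mean raised the median difference of all probe sets by 0.17 for WT cerebellum minus cortex (from -0.07 to 0.10) and by 0.11 in WT and 0.12 in KO for cerebellum minus hippocampus. With that scaling 65.2% of calls for WT cerebellum minus cortex were higher in cerebellum, against 44.4%. The share higher in cerebellum than hippocampus went from 47.9% to 61.9% in WT and from 45.9% to 60.3% in KO, and in KO cerebellum against cortex from 47.5% to 57.1%. The share higher in hippocampus than cortex went from 53.7% to 65.2% in WT and, the other way, from 46.9% to 37.8% in KO. The share of genotype calls higher in KO went down from 30.0% to 14.3% in hippocampus and from 20% to 8.70% over the regional means, went up from 20.8% to 30.0% in cortex, and was 0% in cerebellum under both. The scaling shifts the probe sets of an array alike, so it does not test a gene's place relative to that median.

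**Figure D4:**
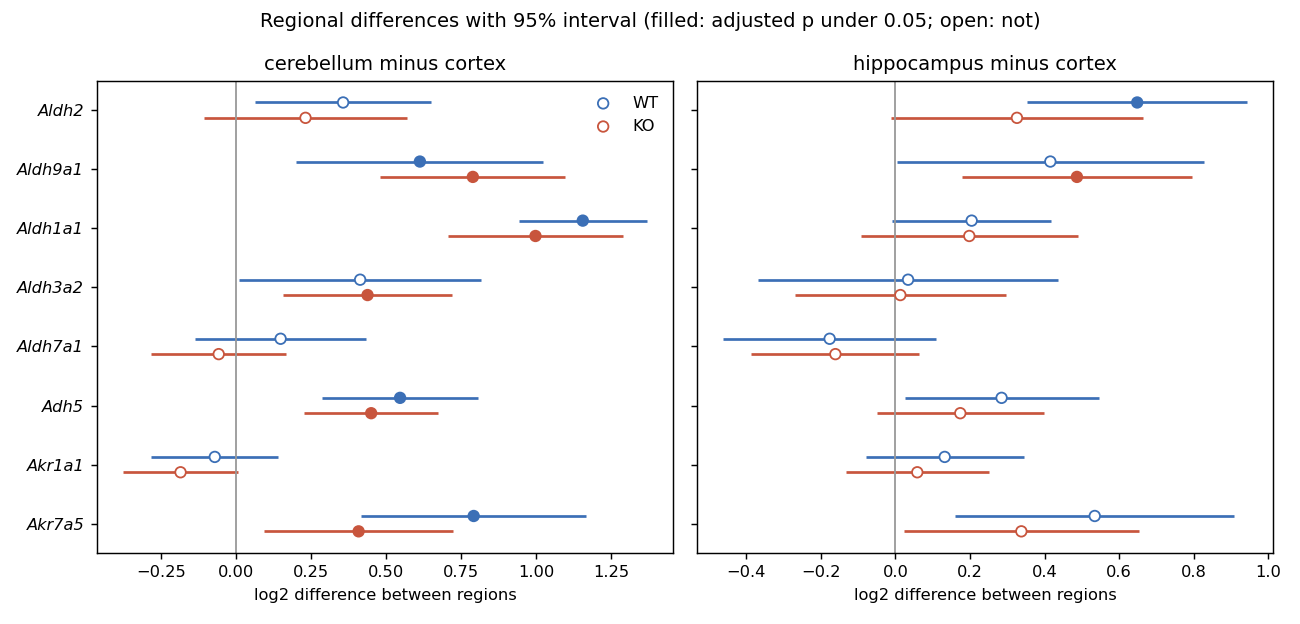
Log2 difference of cerebellum minus cortex and of hippocampus minus cortex for the brightest probe set of each gene, WT in blue and KO in red, with 95% intervals (3 animals a genotype); filled points have an adjusted p under 0.05. Aldh1a1 stands farthest from 0 in cerebellum minus cortex, at 1.16 in WT and 1.0 in KO, and the WT and KO intervals overlap for each gene.

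Aldh1a1, Akr7a5, Adh5 and Aldh9a1 shared the order cerebellum, hippocampus, cortex and, by the brightest probe set, a called step from cerebellum to cortex in both genotypes, so the sequence before their start sites is shown. RefSeq promoter windows (GRCm38.p6), looked up by symbol, were kept for 6 of the 9 genes. No window was kept for Aldh2, Aldh7a1 or Akr1b3, which does not mean that they lack one. The windows are the 250 bases before the start, all on the plus strand, at chr19:20601718-20601967 for Aldh1a1, chr4:139310494-139310743 for Akr7a5, chr3:138442843-138443092 for Adh5 and chr1:167349741-167349990 for Aldh9a1, taking the most downstream start where there were several. Capitals mark matches on either strand to the CCAAT box (searched as CCAAT), the GC box (searched as GGGCGG), the TATA box (searched as TATAAA) and the core of the antioxidant response element (searched as TGACNNNGC); no matches overlapped in these windows.
Aldh1a1: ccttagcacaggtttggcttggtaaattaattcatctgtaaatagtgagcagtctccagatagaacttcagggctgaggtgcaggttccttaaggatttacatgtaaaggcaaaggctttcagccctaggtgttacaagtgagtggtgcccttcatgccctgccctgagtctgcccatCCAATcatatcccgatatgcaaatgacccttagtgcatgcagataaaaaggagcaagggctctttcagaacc
Akr7a5: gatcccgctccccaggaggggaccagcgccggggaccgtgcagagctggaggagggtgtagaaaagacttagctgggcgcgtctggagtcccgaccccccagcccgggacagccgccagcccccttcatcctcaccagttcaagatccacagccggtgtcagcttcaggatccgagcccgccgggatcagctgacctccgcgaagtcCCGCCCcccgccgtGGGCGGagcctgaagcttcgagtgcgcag
Adh5: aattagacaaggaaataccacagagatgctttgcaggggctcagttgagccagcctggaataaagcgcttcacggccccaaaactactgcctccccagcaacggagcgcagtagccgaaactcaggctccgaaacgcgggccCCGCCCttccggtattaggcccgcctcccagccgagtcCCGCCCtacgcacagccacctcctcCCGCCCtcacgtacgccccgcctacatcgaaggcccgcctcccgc
Aldh9a1: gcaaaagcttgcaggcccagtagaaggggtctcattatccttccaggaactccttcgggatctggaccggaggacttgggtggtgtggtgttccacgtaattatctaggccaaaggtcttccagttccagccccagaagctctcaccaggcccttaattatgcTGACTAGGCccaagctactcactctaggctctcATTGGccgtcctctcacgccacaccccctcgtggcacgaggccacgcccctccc

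Of the 4 motifs searched, none was found in all 4 windows shown, while Aldh1a1 and Aldh9a1 both held the CCAAT box and Akr7a5 and Adh5 both held the GC box. Aldh1a1 had 1 CCAAT, 72 bases before the start, Akr7a5 had 2 and Adh5 had 3 matches to the GC box, and Aldh9a1 had 1 CCAAT in reverse and 1 match to the antioxidant core. Of all 32851 windows of this length, 33.8% held the CCAAT box, 32.7% the GC box, 12.4% the TATA box and 10.2% the antioxidant core. The number of CpG pairs was 1 in Aldh1a1, 8 in Aldh9a1 and 21 in both Akr7a5 and Adh5, beside a median of 6 over all windows. These are matches of letters, not sites of binding.

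The genes whose signal most resembled a regionally varying member over the 18 arrays were named by Pearson's r, as a description, since arrays of 1 region share their level. For Aldh1a1 they were Ndufb11 (0.958), Tmem229b (0.956) and Banf1 (0.954). For Adh5 they were Pla2g7 (0.921), Kcnd2 (0.918) and Btf3 (0.913). For Akr7a5 they were Sec61a1 (0.917), Desi1 (0.910) and Fbln1 (0.907), and for Aldh2 Pbx2 (0.871), Slc41a1 (0.840) and Grn (0.827). Within groups, after each group mean was removed, the correlations were 0.646 to 0.703 for the 3 genes named with Aldh1a1, 0.433 to 0.604 for Adh5, 0.792 to 0.896 for Akr7a5 and 0.313 to 0.788 for Aldh2. The genes were picked as the highest on these same arrays, which favours high values within groups too, so they are no separate support.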

How the data were processed

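RNA was measured on 18 arrays, 1 per animal and region. Each deposited value is the linear intensity of 1 probe set, scaled by the authors to a common trimmed mean before they were deposited, as the values themselves show (2% trimmed mean of 150.07 to 150.08 on each array). No source used here names the software. The number in each sample title was taken as the animal's, and replicates are animals. Of 12488 probe sets, 66 controls were left out; signals were floored at 9.46, the 20th percentile, and log2 transformed, and 8382 above their array's 40th percentile on at least 3 arrays were tested with limma 3.58.1 (R 4.3.3). Genotypes were compared in each region with 6 group means over 18 arrays, and regions with the animal as a block. Arrays of 1 animal deviated together weakly (median r of 0.135 within animals and -0.0179 between them). Probe sets were named from the platform annotation: 10833 had 1 symbol, 396 several and 1237 none. Every member probe set is given; from each list the 2 genes of lowest p are named where none passed. The members and lists were chosen with earlier results of these data known. The model was tested on simulated data. Alternatives covered scaling, floor, filter, trend, block and each animal left out, and for WT regions also a fit of all 18 arrays of both genotypes. The number of animals limits precision.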

Additional observations from a re-analysis of the deposited data

How the results depend on the processing

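Over 814 recomputed KO minus WT values of member probe sets, under other scalings, floors, filters, blocks and with each animal left out, 0 passed the threshold, and the lowest adjusted p was 0.339 (limma). Counts of called members between regions did move, and the cause was not tested. In the test between WT regions 4 genes became 7 with all 18 arrays of both genotypes, an alternative chosen after seeing the data, and 2 with the mean of all probe sets of a gene. For WT cerebellum minus hippocampus 1 gene became 5 with all 18 arrays, 2 with scaling to the same median and 0 with the gene mean. For WT hippocampus minus cortex 1 gene became 4 with all 18 arrays, 2 with scaling to the same median, 2 with no filter and 0 with the gene mean. For KO cerebellum minus hippocampus 4 genes became 2 with no intensity trend and 1 with the gene mean. For KO hippocampus minus cortex 1 gene became 0 with scaling to the same median and 0 with no replicate block. With 1 animal left out the counts of called member genes were 1 to 3 for differences between WT regions, 2 to 3 for differences between KO regions, 1 to 1 for WT cerebellum minus hippocampus, 1 to 3 for KO cerebellum minus hippocampus, 2 to 4 for WT cerebellum minus cortex, 2 to 4 for KO cerebellum minus cortex, 0 to 1 for WT hippocampus minus cortex and 0 to 0 for KO hippocampus minus cortex. Without 1 animal at a time, calls over all probe sets were 0 to 121 for KO minus WT in cerebellum (3 with all animals), 3 to 22 in hippocampus (10), 6 to 32 in cortex (24) and 3 to 27 in the mean of the regions (15). Signal over background limits the dim probe sets 161956_at, 161997_f_at, 161401_f_at and 161783_at.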
